A study of Mus musculus with 6 samples.

Results

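This account covers 10 genes of extracellular vesicle formation in mouse osteoblasts: the tetraspanins Cd9, Cd63 and Cd81, the sorting genes Hgs, Tsg101, Pdcd6ip and Sdcbp, the ceramide-forming enzyme gene Smpd3, and the small GTPase genes Rab27a and Rab27b. They were taken by symbol from the deposited gene table, which lists 21686 genes, and all 10 were found. The cells were MC3T3-E1 Subclone 14, a clonal osteoblast precursor line from mouse calvaria, so every library comes from a single clone grown in culture. The control group received 100 µL of PBS, the dexamethasone group 10 µM dexamethasone, a synthetic glucocorticoid, and a further group 10 µM dexamethasone with 100 µg of EPC-EVs, the extracellular vesicles shed by endothelial progenitor cells of mouse bone marrow and isolated with a kit. All groups were kept for 72 hours by the sample labels, where the text on the series gives a shorter time, and had 2 RNA-seq libraries each, which the study's text calls biological replicates. No group received EPC-EVs alone, so an effect of the vesicles was measurable only in cells that also had dexamethasone.

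Exosomes are small vesicles that bud into late endosomes and are released when these multivesicular bodies fuse with the plasma membrane. Tetraspanins organise membrane patches and are the usual surface markers of the vesicles, ESCRT proteins gather ubiquitinated cargo and drive budding, syntenin and ALIX link syndecans to that machinery, ceramide made by neutral sphingomyelinase gives a route that does not need ESCRT, and Rab27 proteins dock multivesicular bodies at the membrane. In bone, vesicles from osteoblasts are known to carry signals to neighbouring cells and to seed mineral, and Smpd3 itself is known for its need in skeletal mineralisation.

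In a fit of the 4 libraries of both groups, 3 of the 10 genes differed between cells given dexamethasone with EPC-EVs and cells given dexamethasone alone, a share near or below the background, since edgeR called 39.8% of all genes tested there. Tsg101 was 2.89-fold lower, Cd63 was 1.50-fold higher and Smpd3 was 5.75-fold higher by edgeR, and the same 3 genes passed in the same directions against the PBS control, a comparison that uses the same 2 libraries with EPC-EVs and called 36.4% of all genes. The 7 others did not pass in either comparison, and no gene of the 10 passed between dexamethasone and control. With a trend on gene length and GC content removed, Cd63 turned sign in both comparisons, while Tsg101 and Smpd3 kept their direction and call with smaller values, as described beside each gene. Of the 7 others, Sdcbp was then called higher in both comparisons and Hgs lower against dexamethasone.

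The libraries held 5146760 to 6583735 assigned reads in the control and dexamethasone groups and 12864009 to 13182014 in the group with EPC-EVs, so that 3 counts, taken as the limit of detection, corresponded to 0.228 to 0.583 CPM of the unscaled library totals. Gene levels are given in CPM with library totals scaled by the TMM method, so that libraries of unequal depth can be compared. Mitochondrially encoded genes took 5.55% to 8.62% of the counts without EPC-EVs and 0.465% to 0.727% with them, where Gm26917 took the most counts, 5.88% and 6.69%, in place of mt-Co1. The fold changes also followed base composition: between dexamethasone with EPC-EVs and dexamethasone alone, the median log2 fold change was -0.72 over the 2709 genes lowest in transcript GC content, up to 43.1%, and 0.72 over the 2709 highest, from 55.0%. Cd63, Hgs and Smpd3 lie among the highest and Sdcbp and Rab27b among the lowest, so values with this trend removed are given for them in the comparisons with EPC-EVs, and the trend removed is one on gene length and GC together, whose parts were not tested apart. All 9 osteoblast markers examined were in the table, with a summed level of 15820 to 17450 CPM without EPC-EVs and 23390 to 29230 CPM with them, although Alpl, Ibsp and Bglap stayed at or below 3.19, 2.39 and 6.57 CPM. The sum joins opposite changes. Of 7 markers tested between dexamethasone with EPC-EVs and dexamethasone alone, 3 were called higher (Col1a1, Col1a2 and Sparc) and 1 lower, Spp1. Of all genes, 20.9% were called higher there and 18.9% lower. Spp1 measured 10250 to 11310 CPM without EPC-EVs and 6104 and 4405 CPM with them. Of 8 endothelial markers, 6 were in the table, including Cd34, Prom1 and Vwf of the donor cells of the vesicles. Kdr, a further marker of the donor cells, and Tie1 were not. The summed level of the 6 was 361 to 416 CPM without EPC-EVs and 242 to 290 CPM with them, nearly all of it Cd34. Cdh5, Prom1 and Tek were at 0 in both libraries with EPC-EVs, as were Cdh5 in both control libraries and Prom1 and Tek in both with dexamethasone. Of 8 haematopoietic markers, 4 were in the table, and these summed to 11.7 to 18.4 CPM without EPC-EVs and to 19.0 to 54.2 CPM with them. The highest value held 37.0 CPM of Csf1r in EPC-EV replicate 2, against at most 4.43 CPM in the other libraries. Of the 7 glucocorticoid receptor target genes tested between dexamethasone and control, edgeR called 0, against 0.0544% of all genes. An unadjusted p under 0.05 was found for 2 of these targets, against 10.9% of all genes, and DESeq2 and limma called 0. Their list summed to 621 to 761 CPM in control, 559 to 588 CPM with dexamethasone and 899 to 1258 CPM with EPC-EVs, where 4 of 7 were called higher against dexamethasone, with 20.9% of all genes called higher. These are bulk samples, in which fewer cells of a type and less RNA per cell cannot be told apart.

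The order of the 10 genes by length-corrected level was read from the deposited FPKM values. In the control group Cd9 stood first at 186 ± 1.29 FPKM (SD, n = 2), followed by Cd63 at 107 ± 26.6 and Cd81 at 84.7 ± 13.1. Cd63 and Cd81 overlapped between libraries, so their order was not resolved there. The sorting genes came next, from 35.0 ± 1.02 FPKM for Tsg101 through Pdcd6ip at 31.6 ± 1.41 and Hgs at 18.7 ± 7.93 to Sdcbp at 11.6 ± 1.36, and the lowest levels were those of Rab27b, Rab27a and Smpd3, at 1.97 ± 0.23, 1.09 ± 0.48 and 0.19 ± 0.216 FPKM. The dexamethasone group kept the same order down to Sdcbp, with Rab27a and Rab27b overlapping below it. With EPC-EVs, Cd63 stood above Cd9, at 170 ± 8.91 against 146 ± 3.67 FPKM, with no overlap between the libraries of the 2 genes. Tsg101 moved from the fourth place to the seventh, at 13.0 ± 1.61 FPKM, where it overlapped with Sdcbp, and Smpd3 stood above both Rab27 genes.

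**Figure D1:**
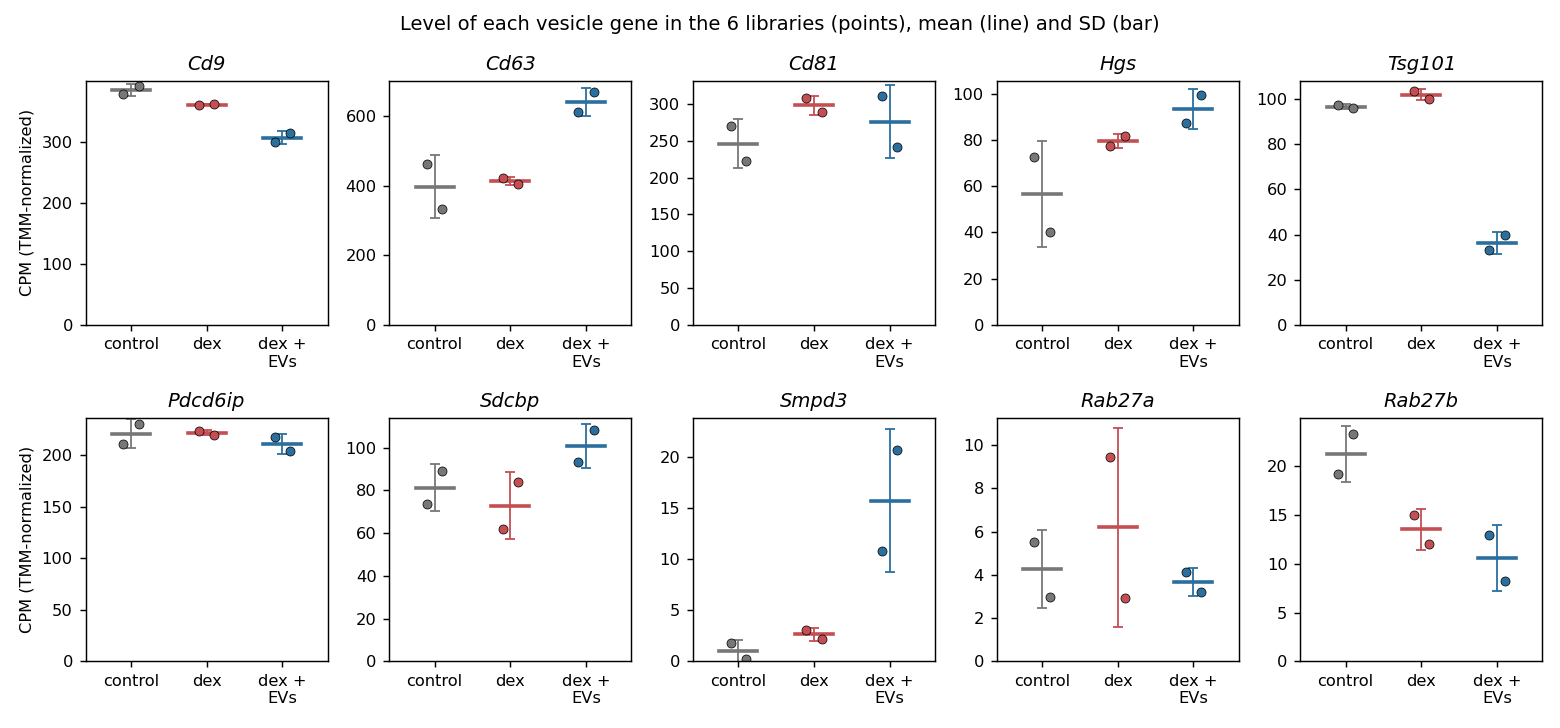
Level of each of the 10 vesicle genes in CPM (TMM-scaled, vertical axes from 0), with each point a library, the line the group mean and the bar the SD of 2 libraries. Tsg101 lies at 33.0 and 39.9 CPM with EPC-EVs and between 95.9 and 103.7 CPM in the 4 other libraries, while Cd63 and Smpd3 are highest in the 2 libraries with EPC-EVs.

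The sequence upstream of the genes was taken from a RefSeq promoter table (GRCm38.p6), in which 7 of the 10 members had an entry and Sdcbp, Rab27b and Smpd3 did not. The 250 bases before the start are shown for Cd63 and Tsg101, the members with an entry that passed the test, beside Cd81, a tetraspanin that did not pass, and Hgs, the ESCRT-0 partner of Tsg101. Capitals mark the GC box GGGCGG and the CCAAT box CCAAT on either strand, and each line runs 5′ to 3′ on the strand of the gene.
Cd63: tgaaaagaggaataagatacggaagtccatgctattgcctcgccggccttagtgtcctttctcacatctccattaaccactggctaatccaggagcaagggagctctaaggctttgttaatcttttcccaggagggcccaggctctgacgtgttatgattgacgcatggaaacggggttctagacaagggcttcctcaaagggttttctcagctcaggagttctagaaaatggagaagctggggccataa
Cd81: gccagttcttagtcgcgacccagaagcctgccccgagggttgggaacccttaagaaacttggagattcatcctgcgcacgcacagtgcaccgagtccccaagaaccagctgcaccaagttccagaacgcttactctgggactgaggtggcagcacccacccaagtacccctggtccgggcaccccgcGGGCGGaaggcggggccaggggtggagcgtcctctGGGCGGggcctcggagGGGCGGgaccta
Hgs: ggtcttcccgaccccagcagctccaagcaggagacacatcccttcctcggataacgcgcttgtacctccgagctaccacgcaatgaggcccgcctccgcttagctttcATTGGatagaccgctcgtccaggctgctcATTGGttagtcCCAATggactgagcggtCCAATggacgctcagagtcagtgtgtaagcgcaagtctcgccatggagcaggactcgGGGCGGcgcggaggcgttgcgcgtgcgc
Tsg101: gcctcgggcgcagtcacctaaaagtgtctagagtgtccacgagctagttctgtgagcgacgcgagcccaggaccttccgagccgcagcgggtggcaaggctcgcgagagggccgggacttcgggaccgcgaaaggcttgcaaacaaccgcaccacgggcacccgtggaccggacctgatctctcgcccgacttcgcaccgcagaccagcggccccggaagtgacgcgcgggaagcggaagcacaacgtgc
These windows are chr10:128909095-128909344 on the plus strand for Cd63, chr7:143052500-143052749 on the plus strand for Cd81, chr11:120467385-120467634 on the plus strand for Hgs and chr7:46919970-46920219 on the minus strand for Tsg101. The Cd63 window lies inside the longer gene annotated by Ensembl, so it belongs to a RefSeq start within it. The GC box was found 3 times upstream of Cd81, 1 time upstream of Hgs and 0 times upstream of Cd63 and Tsg101, and 32.7% of the 32851 promoters in the table held it. Matches to the CCAAT box lay upstream of Hgs, 4 in all, and none upstream of the other 3, against 33.8% of promoters with a match. Base composition differed among them, with 48.8% GC and 6 CpG dinucleotides upstream of Cd63 and 66.8% GC and 30 CpG dinucleotides upstream of Tsg101. A match or its absence describes these letters in these windows and no more.

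The first comparison asked how dexamethasone alone changed these genes. None of the 10 passed the edgeR quasi-likelihood test at an adjusted p under 0.05, the threshold used for every call here, against 0.0544% of the 12879 genes tested, and 0 of the 10 had an unadjusted p under 0.05, against 10.9% of genes. Limma called 0 of the 10, and DESeq2 called 0 of the 7 to which it gave an adjusted p, which leaves out Smpd3, Rab27a and Rab27b. The 2 libraries of a group did not overlap with the 2 of the other for 6 of the 10 genes, against 44.1% of all genes, and the median log2 fold change was 0.06 over the members and 0.01 over all genes. The values farthest from 0 were those of Smpd3 (1.35 ± 1.28 SE, adjusted p = 0.738 by edgeR), Rab27b (-0.66 ± 0.36), Rab27a (0.53 ± 0.73) and Hgs (0.49 ± 0.27, adjusted p = 0.528). With the trend on length and GC removed they were 1.13 for Smpd3, -0.40 for Rab27b, 0.55 for Rab27a and 0.08 for Hgs. The 2 control libraries differed in this outcome: with control replicate 2 as the lone control, Cd81 at 0.42 and Hgs at 0.99 on the log2 scale passed, with 2200 genes called in all, and with replicate 1 as the lone control they were at 0.15 and 0.14 and did not. Smpd3 was at 3.60 in the former and 0.56 in the latter, uncalled in both.

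The second comparison, dexamethasone with EPC-EVs against dexamethasone alone, asked what the vesicles changed in steroid-treated cells. By edgeR, 3 of the 10 genes passed, 2 higher and 1 lower, against 39.8% of the 13556 genes tested (20.9% higher and 18.9% lower). An unadjusted p under 0.05 was found for 5 of the 10, against 48.4% of genes, the further ones being Cd9 and Sdcbp. The share of the members was thus near the background. Libraries of the 2 groups did not overlap for 7 of the 10, against 72.6% of all genes, and the median log2 fold change was -0.14 over the members and 0.01 over all genes. Against the PBS control, where both agents differ and the same 2 libraries with EPC-EVs are used again, 3 of the 10 passed, with 36.4% of 13511 genes called in the background (19.1% higher and 17.2% lower), and 5 had an unadjusted p under 0.05, against 46.7%. There the libraries of 7 members did not overlap, against 73.0% of all genes.

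**Figure D2:**
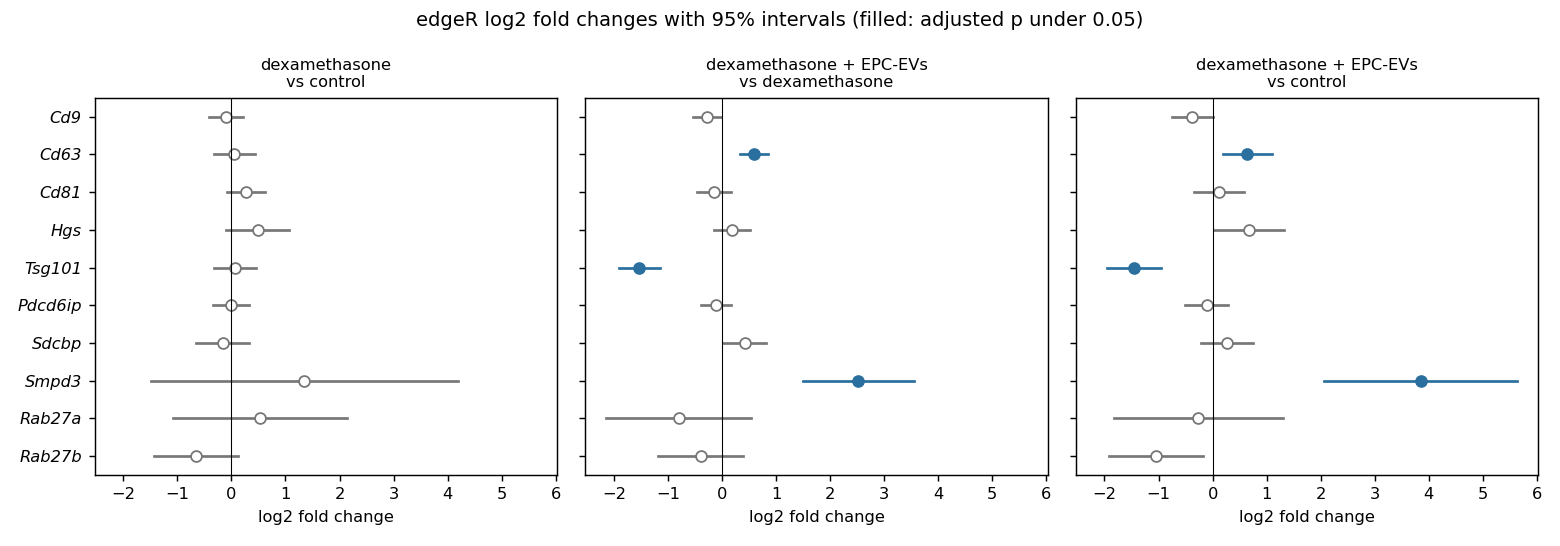
Fitted log2 fold change of each of the 10 genes (horizontal axis) with its 95% interval in the 3 comparisons, filled where the edgeR adjusted p was under 0.05. Tsg101 is the called gene left of 0 and Cd63 and Smpd3 the called genes right of 0 in the 2 panels with EPC-EVs, and no point is filled in the first.

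Among the tetraspanins, Cd63 (ENSMUSG00000025351.14, chr10:128900989-128912822, plus strand), which is enriched in late endosomes and multivesicular bodies, stood at 463 and 333 CPM in the control libraries, 422 and 406 CPM with dexamethasone, and 614 and 671 CPM with EPC-EVs. Both libraries with EPC-EVs were above all 4 others, and the control libraries lay farther apart than those of any other group. The log2 fold change was 0.59 ± 0.12 (SE, edgeR adjusted p = 0.00206) against dexamethasone and 0.64 ± 0.20 (adjusted p = 0.0359) against control. With the trend on gene length and GC removed, the sign turned in both, to -0.11 (edgeR adjusted p = 0.506) against dexamethasone and to -0.50 (adjusted p = 0.033) against control, where the gene was then called lower. The transcript of Cd63 has 58.1% GC. Without dexamethasone replicate 2 the call against dexamethasone was lost (0.56, edgeR adjusted p = 0.0573), and the call against control was lost without control replicate 2 (0.44), without replicate 1 (0.72) or 2 (0.59) of the group with EPC-EVs, and in limma (0.68). At the study's own threshold, an unadjusted p under 0.05 with a log2 fold change beyond 1.5, Cd63 was uncalled in both comparisons.

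Cd9 (ENSMUSG00000030342.8, chr6:125460266-125494791, minus strand), a tetraspanin of the cell surface that associates with integrins, had the narrowest spread of the 3. Its level was 378 and 392 CPM in control, 361 CPM in both dexamethasone libraries, and 299 and 315 CPM with EPC-EVs. The 3 groups did not overlap, with the order control, dexamethasone, dexamethasone with EPC-EVs from high to low, yet no step passed the test: -0.10 ± 0.14 for dexamethasone against control, -0.28 ± 0.12 (edgeR adjusted p = 0.0809) for the addition of EPC-EVs, and -0.38 ± 0.17 (adjusted p = 0.112) for both against control. The middle value was called lower with library totals (-0.33), with upper quartile scaling (-0.32) and with genes of at least 10 CPM alone (-0.32), and it was -0.07 with the trend on length and GC removed. Pseudogenes named Cd9-ps and Cd63-ps are annotated and could share reads with both genes, an annotated antisense gene, Gm28809, overlaps Cd9, and the strand setting of the read counting is not given in the sources used here.

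Cd81 (ENSMUSG00000037706.17, chr7:143052739-143067934, plus strand), which pairs with other tetraspanins and with immunoglobulin superfamily proteins, measured 270 and 223 CPM in control, 308 and 289 CPM with dexamethasone, and 311 and 241 CPM with EPC-EVs. The libraries with EPC-EVs spanned those with dexamethasone. Between those 2 groups the log2 fold change was -0.16, with a 95% interval from -0.47 to 0.16, and it ran from -0.34, when EPC-EV replicate 1 was left out and the gene was called, to 0.04 without replicate 2.

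Ratios within a library do not depend on the scaling between libraries. The ratio of Cd63 to Cd9 counts was 1.23 and 0.851 in control, 1.17 and 1.12 with dexamethasone, and 2.05 and 2.13 with EPC-EVs. Cd63 thus took 50.1% and 54.7% of the summed counts of the 3 tetraspanins with EPC-EVs and 35.2% to 41.7% in the 4 other libraries, with no overlap. Cd9 took 24.4% and 25.6% with EPC-EVs against 33.1% to 41.3% elsewhere. These shares carry the same difference in base composition between the genes, since the Cd9 and Cd81 transcripts have 45.9% and 50.3% GC.

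**Figure D3:**
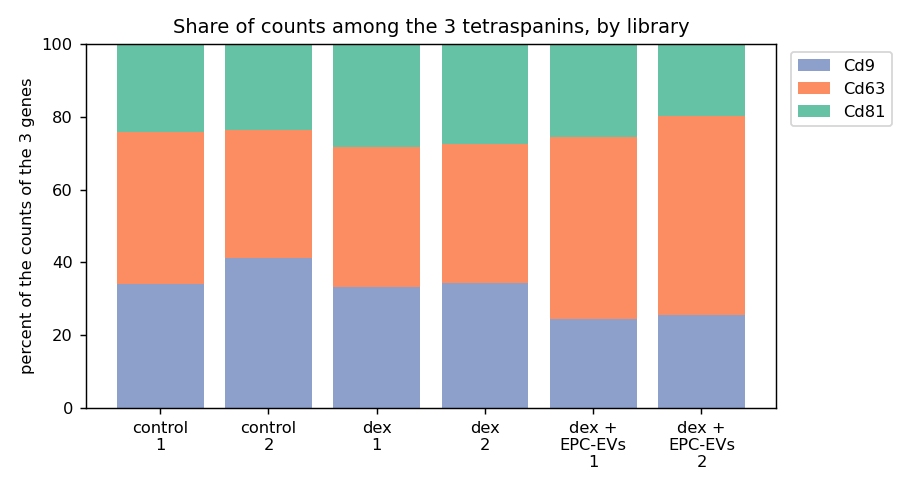
Percent of the summed Cd9, Cd63 and Cd81 counts that each gene took in each of the 6 libraries (bars from 0 to 100). The Cd63 share is 50.1% and 54.7% in the libraries with EPC-EVs and at most 41.7% in the others.

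Of the sorting genes, Tsg101 (ENSMUSG00000014402.15, chr7:46888949-46919969, minus strand) encodes the ESCRT-I subunit that receives ubiquitinated cargo, and its protein is a common vesicle marker. It measured 97.4 and 95.9 CPM in control, 103.7 and 100.3 CPM with dexamethasone, and 33.0 and 39.9 CPM with EPC-EVs. The 4 libraries without EPC-EVs lay close together and both with EPC-EVs were far below them, although those were the deepest: 416 and 508 reads fell on Tsg101 there, against 712 and 681 with dexamethasone. On the log2 scale it fell by 1.53 ± 0.17 (SE, edgeR adjusted p = 4.98e-05, 95% interval -1.91 to -1.15) against dexamethasone and by 1.46 ± 0.22 (adjusted p = 0.00171) against control. Against dexamethasone it was called lower in every setting tried, from -1.65 without EPC-EV replicate 2 to -1.18 with the trend on length and GC removed. Against control the range was -1.59 to -1.02, and of the settings tried only the study's own threshold left it uncalled. That threshold called 20.7% of genes against control and 14.2% against dexamethasone. A processed pseudogene, Gm45628, lies within the Tsg101 locus on the other strand and a further gene is annotated as Tsg101-ps, so reads shared with such copies could not be told apart.

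Hgs (ENSMUSG00000025793.15, chr11:120467635-120483979, plus strand) encodes the ESCRT-0 subunit that binds ubiquitin first and recruits TSG101. Its levels were 72.7 and 40.2 CPM in control, 77.3 and 81.9 CPM with dexamethasone, and 87.2 and 99.5 CPM with EPC-EVs. Control replicate 2 stood apart from the 5 other libraries. The log2 fold change was 0.18 ± 0.16 (edgeR adjusted p = 0.375) for the addition of EPC-EVs and 0.68 ± 0.29 (adjusted p = 0.0977) against control, and the latter passed without control replicate 1 (1.21), with no filter on low counts (0.72) and in a fit of all 6 libraries (0.69). With the trend on length and GC removed both turned, to -0.54 (edgeR adjusted p = 0.0266), called lower, and to -0.47 (adjusted p = 0.127). A second gene of the same symbol is annotated at the same locus, which could take a part of its reads.

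The ratio of Tsg101 to Hgs counts was 1.34 and 2.39 in control, 1.34 and 1.22 with dexamethasone, and 0.378 and 0.401 with EPC-EVs, so Tsg101 had more counts than Hgs in the 4 libraries without EPC-EVs and fewer in both with them. Against Pdcd6ip the Tsg101 ratio was 0.416 to 0.464 without EPC-EVs and 0.151 and 0.195 with them. In either ratio both libraries with EPC-EVs lay below the 4 others, whereas control and dexamethasone were not apart. The Tsg101 and Pdcd6ip transcripts have 44.0% and 47.0% GC, closer to each other than either is to Hgs at 58.2%.

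Pdcd6ip (ENSMUSG00000032504.15, chr9:113651744-113708259, minus strand), which encodes ALIX, a partner of TSG101 and of syntenin, was the steadiest gene of the 10. Its levels were 211 and 231 CPM in control, 223 and 220 CPM with dexamethasone, and 218 and 204 CPM with EPC-EVs. The dexamethasone libraries lay just above those with EPC-EVs and within the control libraries. The log2 fold change was 0.00 for dexamethasone against control, with a 95% interval from -0.34 to 0.33, and -0.12 for the addition of EPC-EVs, with an interval from -0.39 to 0.16 (edgeR adjusted p = 0.497).

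Sdcbp (ENSMUSG00000028249.15, chr4:6365650-6408423, plus strand) encodes syntenin, the adaptor between syndecans and ALIX. It measured 73.5 and 89.0 CPM in control, 61.7 and 83.9 CPM with dexamethasone, and 93.4 and 108.2 CPM with EPC-EVs. Both libraries with EPC-EVs were above the 4 others, the nearest of which was control replicate 2. For the addition of EPC-EVs the log2 fold change was 0.42 ± 0.18 (edgeR adjusted p = 0.0836), and it was 1.003 (adjusted p = 0.0015) and called with the trend on length and GC removed, as it was with no filter on low counts (0.46), and without EPC-EV replicate 1 (0.54). Against control the value was 0.26 (edgeR adjusted p = 0.36), and 1.03 (adjusted p = 0.00392) and called with the trend removed. The transcript has 41.5% GC, and the locus overlaps Nsmaf on the opposite strand and Gm37689 on the same strand.

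Smpd3 (ENSMUSG00000031906.9, chr8:106252548-106337988, minus strand) encodes neutral sphingomyelinase 2, which splits sphingomyelin into ceramide and phosphocholine. It was the least abundant gene of the 10 without EPC-EVs. The libraries held 11 and 1 reads in control, 21 and 15 reads with dexamethasone, and 136 and 263 reads with EPC-EVs, or 1.79 and 0.199, 3.06 and 2.21, and 10.8 and 20.6 CPM. The second control library was below the limit of 3 counts, all 3 groups were apart, and the 2 libraries with EPC-EVs differed widely from each other. Against dexamethasone the log2 fold change was 2.52 ± 0.47 (SE, edgeR adjusted p = 0.00138), with a 95% interval from 1.49 to 3.56. It was called in every setting in which it was tested and ran from 1.33 in limma, whose pseudocount of 1 FPKM shrinks low genes, to 2.93 without EPC-EV replicate 1, with 2.02 once the trend on length and GC was removed. Against control it was 3.85 ± 0.78 (edgeR adjusted p = 0.00621), a value that rests on 11 and 1 control reads and moved to 6.21 without control replicate 1, to 3.09 without control replicate 2, to 3.07 with the trend on length and GC removed and to 1.69 in limma, with its call kept in each. The locus overlaps Prmt7 and the lincRNA gene Gm10629 on the opposite strand. A further lincRNA gene, Gm26786, overlaps it on the same strand and could share reads.

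The release genes were low, and neither passed in the 3 comparisons as reported. Rab27a (ENSMUSG00000032202.11, chr9:73044854-73097629, plus strand), known for the docking of multivesicular bodies and of melanosomes, had 34 and 15 reads in control, 65 and 20 with dexamethasone, and 52 and 41 with EPC-EVs, or 5.54 and 2.99, 9.46 and 2.94, and 4.12 and 3.22 CPM. Dexamethasone replicate 1 stood above the other libraries and the groups overlapped. The log2 fold change for EPC-EVs was -0.80 with an interval from -2.14 to 0.54, and it was 0.29 without that library. Rab27a overlaps a processed pseudogene, Gm27186, on the same strand, which could share its reads. For Rab27b (ENSMUSG00000024511.15), its paralog, the levels were 19.2 and 23.3 CPM in control, 15.0 and 12.1 CPM with dexamethasone, and 13.0 and 8.24 CPM with EPC-EVs. Both control libraries were above the 4 treated ones. For EPC-EVs against dexamethasone the value was -0.40 (edgeR adjusted p = 0.412), and 0.53 with the trend removed. It differed from control by -0.66 ± 0.36 on the log2 scale (edgeR adjusted p = 0.523) with dexamethasone and -1.05 ± 0.38 (adjusted p = 0.0601) for both agents against control, the latter 0.15 with the trend on length and GC removed. That value was called at a mean of at least 10 CPM (-1.09), in a fit of all 6 libraries (-1.03) and without control replicate 1 (-1.14). Its transcript has the lowest GC content of the 10, 37.9%.

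**Figure D4:**
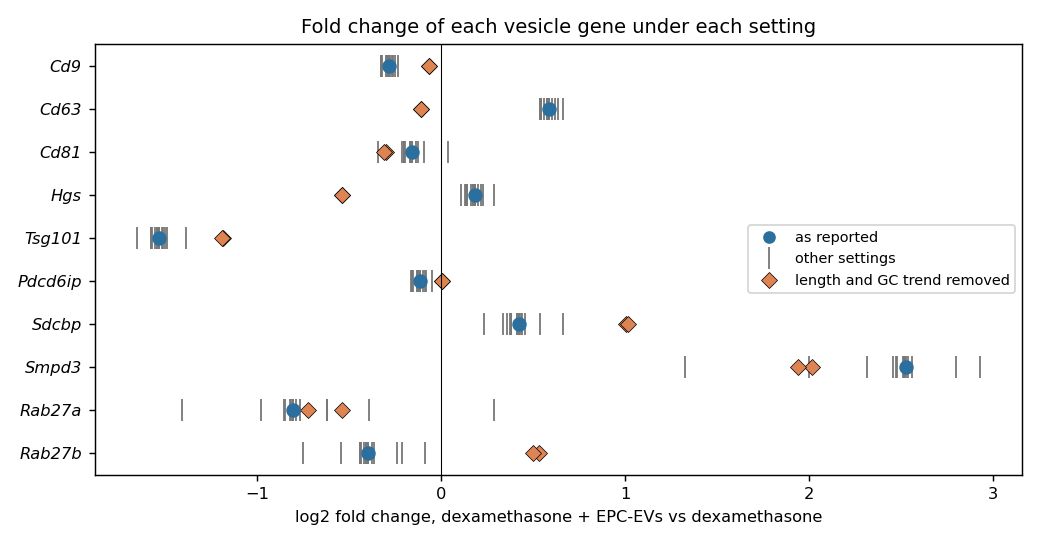
Log2 fold change of each gene between dexamethasone with EPC-EVs and dexamethasone alone (horizontal axis) as reported (circles), with the trend on gene length and GC removed (diamonds) and under the other settings (ticks). Tsg101 stays below -1.18 and Smpd3 above 1.32 throughout, whereas Cd63, Hgs, Rab27b and, close to 0, Pdcd6ip change sign when the trend is removed.

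The other genes of the pathway were followed through 8 lists with 143 genes, of which 131 were in the table and 115 were tested between dexamethasone with EPC-EVs and dexamethasone alone. Of these, 34 were called higher and 28 lower by edgeR, 53.9% in all against the background of 39.8%, and the median log2 fold change was 0.07. By list, the share called ran from 30.8% for other tetraspanins to 81.8% for tetraspanin partners, on 9 to 25 genes tested. Differences between these shares and the background were not tested. Between dexamethasone and control edgeR called 0 of 115, with 16 at an unadjusted p under 0.05 (10.9% of all genes), DESeq2 called 2 and limma 0.

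Beside the 3 members, 13 other tetraspanins were tested, with 2 called higher and 2 lower, against 20.9% and 18.9% of all genes. Tspan4, a tetraspanin of the tracks left by migrating cells, measured 15.6 and 15.8 CPM with dexamethasone and 71.6 and 64.6 CPM with EPC-EVs, a log2 fold change of 2.07 ± 0.21 (edgeR adjusted p = 2.1e-05), or 1.32 with the trend on length and GC removed. Tspan5, a regulator of ADAM10, went the other way at -1.23 ± 0.24. Of 11 tetraspanin partners, 3 were called higher and 6 lower, beside the same shares over all genes. Ptgfrn, which binds CD9 and CD81, was at 1.52 ± 0.19, and the laminin receptor subunit Itga6 was at -1.73 ± 0.51 (edgeR adjusted p = 0.0181), a call lost without dexamethasone replicate 1 (-1.63, adjusted p = 0.132) or 2 (-1.82, adjusted p = 0.102).

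For the ESCRT machinery around Hgs and Tsg101, 8 of 25 genes tested were called higher and 7 lower, and their median stood at 0.02 on the log2 scale. The background for this list and the next was 20.9% of all genes called higher and 18.9% lower. Chmp1a, an ESCRT-III subunit, was at 1.58 ± 0.27 and Chmp5, of the same complex, at -1.12 ± 0.22, or 1.03 and -0.63 with the trend on length and GC removed. Among 9 syndecan and syntenin partners, 3 were called higher and 2 lower. Src, the kinase that phosphorylates syndecans and syntenin, was at 1.18 ± 0.19, a call lost with the trend on length and GC removed (0.40, edgeR adjusted p = 0.119), and Sdc4, a syndecan of focal adhesions, fell by 0.79 ± 0.12 on the log2 scale.

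In the sphingolipid list, which sets Smpd3 beside other enzymes of ceramide metabolism, 7 of 15 were called higher and 3 lower. The shares over all genes were 20.9% and 18.9%. Smpd1, the acid sphingomyelinase of lysosomes, was at 29.1 ± 2.09 CPM with dexamethasone and 99.9 ± 14.0 CPM with EPC-EVs (SD, n = 2), a log2 fold change of 1.73 ± 0.19 (edgeR adjusted p = 3.48e-05). Asah2, the neutral ceramidase that degrades ceramide, fell from 80.4 ± 0.918 to 28.9 ± 1.85 CPM, by 1.52 ± 0.18 on the log2 scale. Both kept their call with the trend removed, at 1.21 and -1.01.

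The list of Rab GTPases and Rab27 effectors, which also holds the Ral GTPase gene Rala, gave 4 higher and 3 lower of 16 tested. In all 43.8% were called, near the 39.8% of all genes. Tbc1d10b, a GTPase-activating protein for Rab27, was at 1.38 ± 0.17 (0.69 with the trend removed) and Rala at -1.28 ± 0.20. The docking and fusion list gave 2 higher and 2 lower of 10, or 40.0%, also near that background. The R-SNARE Vamp8 was at 1.27 ± 0.22 and the plasma membrane SNARE Snap23 at -1.49 ± 0.17 (-0.80 with the trend removed). Of 16 other cargo genes, 5 were called higher and 3 lower. Hspa8, a chaperone abundant in vesicles, measured 142 and 136 CPM with dexamethasone and 415 and 390 CPM with EPC-EVs (1.49 ± 0.13, edgeR adjusted p = 7.21e-06), whereas Arrdc4, an arrestin that recruits ubiquitin ligases to budding vesicles, measured 53.0 and 68.8 CPM and then 10.1 and 7.38 CPM (-2.85 ± 0.25).

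**Figure D5:**
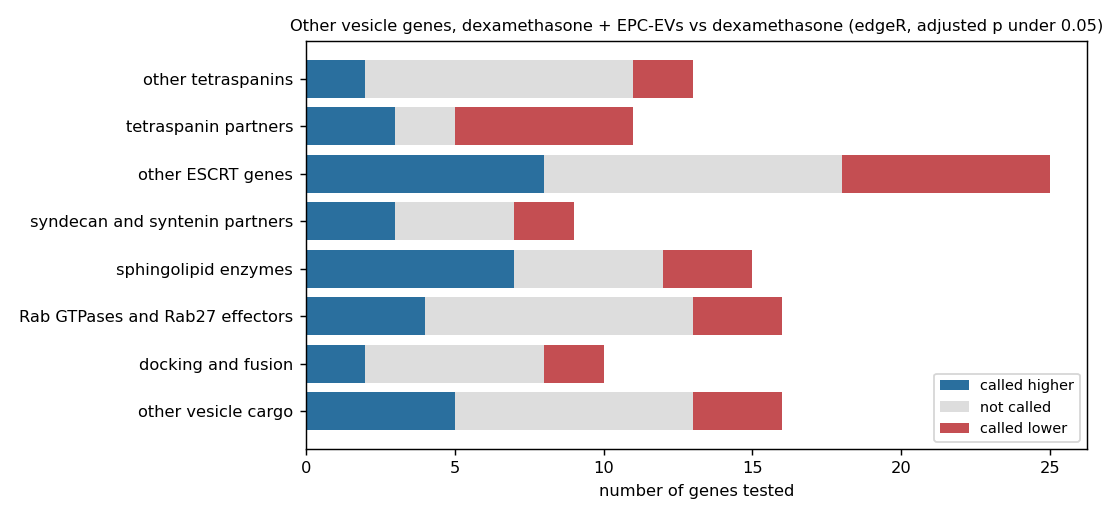
Number of genes called higher, not called and called lower (horizontal axis, genes tested) in each of the 8 lists of other vesicle genes, for dexamethasone with EPC-EVs against dexamethasone alone. Every list holds genes called in both directions, for example 8 higher and 7 lower of 25 among the other ESCRT genes. Of all genes tested there, 20.9% were called higher and 18.9% lower.

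Likeness between genes was measured as the root mean square difference of log2 CPM, centred on each gene's mean over the 6 libraries, among 9223 genes. Nearest to Smpd3, the member with the largest fold change, were Gpaa1 at 0.18, Lzts2 at 0.29 and Slc39a3 at 0.31.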

How the data were processed

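Total RNA was taken to libraries (NEBNext Ultra), and reads were aligned by the authors with HISAT2 to GRCm38 and counted per gene with HTSeq 0.6.1. The deposited table holds whole-number counts and FPKM values by the authors, which equal those counts over the library total and a fixed length per gene, and 0 of its columns of sample values went unused. The deposited transcript table held chromosome 1 alone, where no member lies, and was not used. Counts were scaled by TMM and tested pairwise, 4 libraries a comparison, with edgeR 4.0.16 (R 4.3.3; filterByExpr, robust quasi-likelihood), and p was adjusted by Benjamini-Hochberg over all genes tested. DESeq2 1.42.0 and limma 3.58.1 on log2(FPKM + 1), other scalings and filters, a loess trend on gene length and transcript GC (span 0.4), and leave-one-out fits were alternatives. Scripts were tested on simulated counts. The members and lists were chosen with earlier results of these data known. From each list, the called genes with the largest rise and fall at a mean of at least 10 CPM are named. The series text, which calls the cells fibroblasts and gives a shorter time, differs from the sample labels (osteoblasts, 72 hours), which were followed. The genes most like Cd9 are not reported here.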

Additional observations from a re-analysis of the deposited data

How the results depend on the processing

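Most values kept their direction and side of the threshold: of the alternatives run, 435 changed neither, 19 brought a value past the threshold, 8 took one below it, and 39 more turned its sign, of which some also crossed the threshold. Between dexamethasone and control, 7 genes were called, against 134 by DESeq2, 248 with no filter, 17 with the trend on length and GC removed, 1 without mitochondrially encoded genes, 0 by limma, 182 at the study's threshold (unadjusted p under 0.05 and log2 fold change beyond 1.5) and 9 to 2200 when 1 library was left out. Members called there were 0 to 2 on leaving out 1 library. With EPC-EVs against dexamethasone, 5397 genes were called, 1922 at the study's threshold and 3250 to 4813 on leaving out 1 library, with 2 to 5 members. Against control, 4916 genes were called and 2793 at the study's threshold, with 3 members called, 1 at that threshold, 5 in a fit of all 6 libraries and 2 to 5 on leaving out 1 library. Leave-one-out fits take the lone library of a group to vary like the other group.

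The replicate numbers did not pair the libraries: the deviations of same-numbered libraries correlated at 0.0546, 0.0208 and 0.00649 over 13465 genes. With the replicate number as a block, 43 genes were called between dexamethasone and control, and 328 with the block and the trend removed, and Sdcbp was called with EPC-EVs against dexamethasone (0.43).

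Signs turned as follows, each on the log2 scale, and the causes were not tested. With the trend on length and GC removed, without and with the replicate block, Cd63 was at -0.37 and -0.37 for dexamethasone against control, -0.11 and -0.11 for EPC-EVs against dexamethasone, and -0.50 and -0.50 for EPC-EVs against control. Sdcbp was at 0.0266 and 0.0141 for dexamethasone. Hgs was at -0.54 and -0.54 against dexamethasone and -0.47 and -0.47 against control. Rab27b was at 0.53 and 0.50, and at 0.15 and 0.11. Cd81 was at -0.16 and -0.16 against control. Pdcd6ip was at 0.0358 and 0.0367 for dexamethasone, 0.00477 and 0.0043 against dexamethasone, and 0.0357 and 0.0363 against control. For dexamethasone against control, Pdcd6ip, with a value near 0, was also at 0.0013 with upper quartile scaling, 0.077 with library totals, 0.00193 with no filter, 0.00469 with all 6 libraries, 0.00105 with the block, and 0.0751 in limma. On leaving out 1 library, the values for dexamethasone ran from -0.0547 to 0.0789 for Pdcd6ip, -0.15 to 0.32 for Cd63, -0.40 to 0.0405 for Sdcbp and -0.54 to 1.14 for Rab27a. For EPC-EVs against dexamethasone they ran from -0.34 to 0.0361 for Cd81 and -1.41 to 0.29 for Rab27a, and against control from -0.066 to 0.30 for Cd81 and -0.62 to 0.29 for Rab27a.

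Depth limits the low genes. Smpd3 and Rab27a had under 70 reads in every library without EPC-EVs, and neither was tested at a mean of at least 10 CPM. With 2 libraries a group and an unequal depth between groups, the group with EPC-EVs and its deeper sequencing and lower mitochondrial share cannot be told apart.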
